A study of Etheostoma caeruleum with 31 samples.

Results

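The testis of the rainbow darter (Etheostoma caeruleum), a small freshwater fish with a yearly breeding season, was compared between the developing stage of January 2012 (6 arrays) and the recrudescence stage of October 2011 (5 arrays). These 11 arrays were taken by their titles from a series of 31 arrays that covers 5 stages, and no array of another stage was used. All fish were reproductively mature adult males, caught wild at a clean site on the Grand River in Ontario. Total RNA from the gonad was labelled with Cy3 and hybridised to 1-colour Agilent oligonucleotide arrays. The labels call the arrays of a stage biological replicates and do not say whether an array holds the RNA of a single fish. Each stage comes from 1 month, so that stage and season cannot be told apart. In the text, replicate numbers are those of the titles.

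In seasonally breeding fish the testis regresses after spawning and is rebuilt before the next season. Recrudescence is the start of this renewal, when spermatogonia, the stem and progenitor cells of the male germ line, multiply within cysts formed by Sertoli cells and enter meiosis. As the testis develops further, spermatids and sperm accumulate, while Leydig cells make androgens. The stages may therefore differ in the mixture of germ cells and somatic cells. In RNA from whole testis, fewer cells of a type and less RNA per cell cannot be told apart. No table used here gives a gene for a probe, so that neither the tissue nor its cell types could be checked against marker genes, and transcripts are described by their probes.

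The arrays of both stages were of similar brightness. The spot intensity at the 75th percentile was on average 4026 ± 658 (SD, n = 6) in developing and 3848 ± 552 (SD, n = 5) in recrudescence testis. The share of the 9041 probes well above background averaged 89.9 ± 3.11% in developing and 89.0 ± 1.93% in recrudescence testis. The 100 brightest probes held 34.7 ± 1.62% of the summed signal in developing and 32.0 ± 1.12% in recrudescence testis, a difference of 2.65 percentage points with an unadjusted p of 0.0173 and an adjusted p of 0.0692 in an exact two-sided permutation test over 462 splits. Without recrudescence replicate 1 the difference was 3.10 points, with an adjusted p of 0.0381 in an exact permutation test over the remaining arrays. With any other single array left out, the adjusted p in such a test was 0.0635 to 0.19. With all arrays, the difference was 0.571 points for the 20 brightest probes and 0.517 points for the 500 brightest. Each had an adjusted p of 0.645 in the exact permutation test. With all arrays, no difference in these measures, or in brightness relative to the spike-in probes (adjusted p of 0.645), passed the threshold after adjustment over the 4 measures. Within a stage, no pair of arrays came close to being a copy, since the median probe differed by at least 0.208 between any pair of developing arrays and by at least 0.21 between any pair of recrudescence arrays on the log2 scale. The labels do not describe how the fish were sampled within a month, so that p-values measure the spread between these arrays.

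Between recrudescence in October and development in January, the levels of many transcripts of the testis changed. Of the 8193 probes tested, 3230 (39.4%) passed an adjusted p of 0.05 in limma's moderated test with Benjamini-Hochberg adjustment. More of them rose than fell, since 2004 probes (24.5%) were higher and 1226 (15%) were lower in developing testis. Most changes were small. The median size was 1.55-fold among the rises and 1.82-fold among the falls, and the interquartile range of the change over all tested probes was -0.23 to 0.46 on the log2 scale. Among changes of at least 2-fold the balance was turned, with 393 rises (4.8%) and 496 falls (6.05%). Among changes of at least 8-fold it turned again, with 57 rises (0.696%) and 5 falls (0.061%).

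The median of all tested probes was itself 0.15 higher in developing testis on the log2 scale of the 75th percentile scaling. Relative to that median, 315 rises and 632 falls past the threshold reached 2-fold. With quantile normalisation the shift was 0.05, and 1616 probes were higher and 1488 lower, so that 52.1% of the calls were rises, against 62% with the 75th percentile. Scaling to 5 spike-in probes gave a shift of 0.36 and left 620 rises and 276 falls. Of these, 575 rises and 265 falls reached 2-fold, so that rises outnumbered falls among 2-fold changes too. On that scale the brightness of each array enters its values, and it ranged from -1.18 to 0.12 among the developing and from -1.66 to -0.65 among the recrudescence arrays (log2 of the 75th percentile over the spike-in probes). The excess of rises among the calls was also lost when slide 3, which holds 2 arrays of each stage, was left out. Without it 434 probes were higher and 615 lower, and 41.4% of the calls were rises. The median change of all tested probes was then 0.11. This setting also leaves fewer arrays in both stages, and the parts of the slide and of the arrays lost were not tested.

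**Figure D1:**
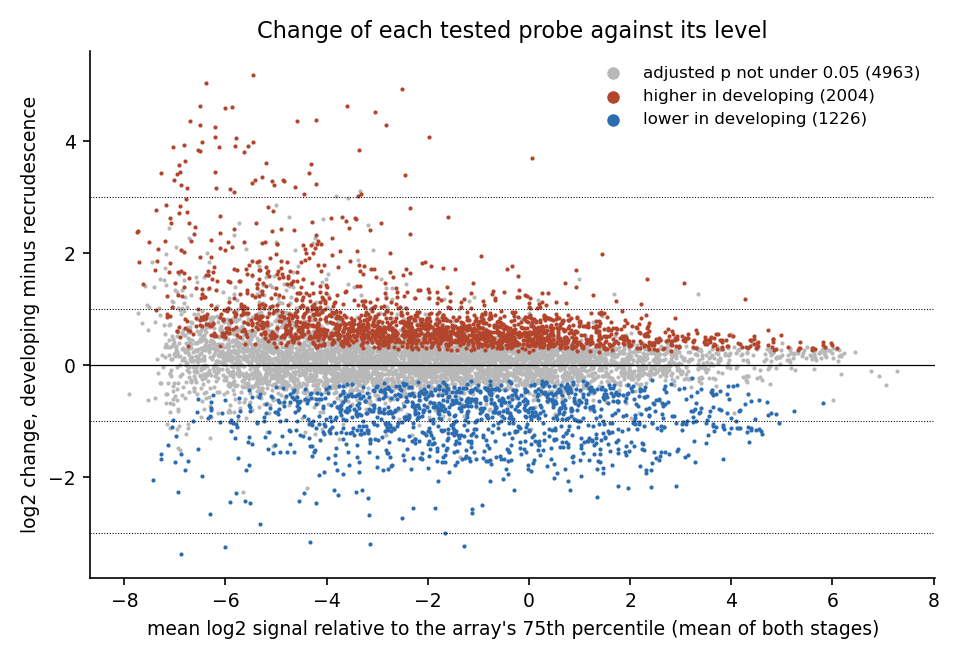
Log2 change of each of the 8193 tested probes (developing minus recrudescence, vertical axis) against its mean log2 signal over the 75th percentile (horizontal axis). Red points are the 2004 probes higher and blue points the 1226 probes lower in developing testis, grey points did not pass the threshold, and dotted lines mark 2-fold and 8-fold. The largest rises lie on the left, among dim probes, and falls extend across the whole range of signal.

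Large rises were most numerous among dim probes and large falls among bright ones. The tested probes were divided into 4 classes of equal size by their mean signal over both stages. The median log2 change of all probes of a class was 0.29, 0.15, 0.11 and 0.08 from the dimmest to the brightest class. The classes as a whole therefore shifted with level too. In the dimmest class, with a median log2 signal of -5.26, 242 probes rose and 69 fell at least 2-fold. In the second class the counts were 88 rises and 110 falls, and in the third 41 and 136. In the brightest class, with a median log2 signal of 1.34, 22 probes rose and 181 fell at least 2-fold. Rises of at least 2-fold therefore had a median level of -3.70 in developing and -5.43 in recrudescence testis, whereas falls of at least 2-fold had a median level of -1.87 in developing and -0.43 in recrudescence testis.

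The same holds for the probes above background on each of the 11 arrays, among which the dimmest class held 126 rises and 55 falls and the brightest 17 rises and 166 falls of at least 2-fold. With normexp background correction the brightest class held 20 rises and 180 falls. With quantile normalisation rises of at least 2-fold numbered 139 in the dimmest and 25 in the brightest class. The falls numbered 132, 146, 143 and 154 from the dimmest to the brightest class. On that scale the dimmest class was nearly even, and falls were spread nearly evenly over the classes. Counted at any size, rises were spread evenly over the classes and falls were not. The share of probes that rose by any amount was 24.6% in the dimmest and 23.4% in the brightest class, while the share that fell was 7.13% in the dimmest and 21.7% in the brightest. Among the 100 brightest probes, 22 rose, none of them 2-fold, and 5 fell, 1 of them at least 2-fold.

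**Figure D2:**
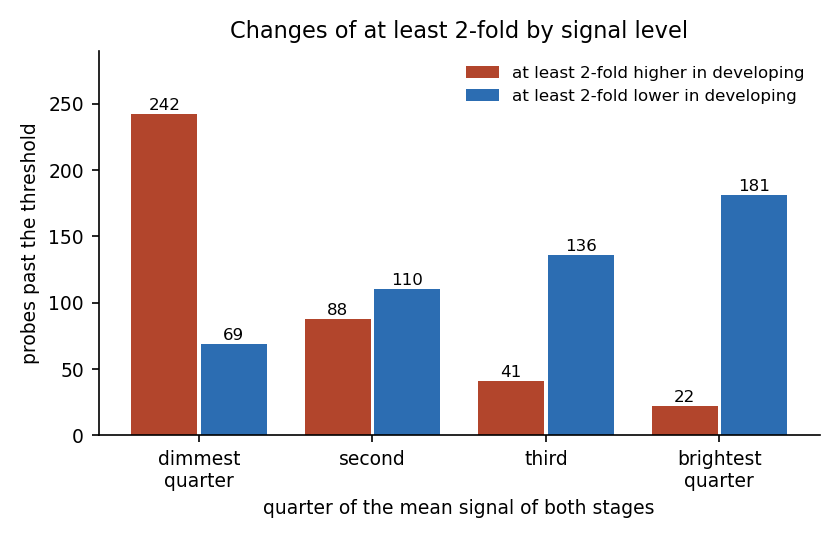
Number of probes (vertical axis) that were at least 2-fold higher (red) or lower (blue) in developing testis and passed an adjusted p of 0.05, by class of the mean signal over both stages (horizontal axis). Rises number 242 in the dimmest and 22 in the brightest class, and falls number 69 in the dimmest and 181 in the brightest.

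The stages overlapped for few of the large falls and for many of the large rises. Over all tested probes, the 6 developing arrays lay above the 5 recrudescence arrays without overlap for 1090 probes (13.3%) and below them for 848 (10.4%). Of the 496 falls of at least 2-fold, 431 (86.9%) showed no overlap, and of the 393 rises of at least 2-fold 186 (47.3%) did. These sets were chosen by the same comparison, so that the shares describe them and were not tested. The SD among the developing arrays had a median of 0.62 for the rises and 0.49 for the falls of at least 2-fold, against 0.28 for all tested probes. The corresponding SD among the recrudescence arrays was 0.52 for the rises and 0.32 for the falls, against 0.26.

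The falls of at least 2-fold were seen on every developing array. Relative to the recrudescence mean, their median log2 signal was -1.10 on developing replicate 1, -1.40 on replicate 2, -1.17 on replicate 3, -2.08 on replicate 4, -1.20 on replicate 5 and -1.26 on replicate 6. The recrudescence arrays had medians of 0.22, 0.24, -0.04, -0.11 and -0.31 for replicates 1 to 5. On each developing array at least 473 of the 496 probes were below all 5 recrudescence arrays. The probes were chosen for their fall on these same arrays, so that such counts describe them and were not tested. Developing replicate 4 showed the deepest falls. It had the lowest value of all 11 arrays for 363 of these probes, and without it 390 probes fell at least 2-fold. Over all 8193 tested probes this array was the lowest for 1187 and the highest for 2111, so that it was extreme in both directions.

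The 57 rises of at least 8-fold were not seen to the same extent on every developing array. Relative to the recrudescence mean, their median log2 signal was 0.37 on developing replicate 1, 4.54 on replicate 2, 1.96 on replicate 3, 5.08 on replicate 4, 4.87 on replicate 5 and 5.45 on replicate 6. The recrudescence arrays had medians of -0.57, -0.04, 1.05, -0.20 and -0.47 for replicates 1 to 5. Developing replicates 2, 4, 5 and 6 were above all recrudescence arrays for each of the 57 probes. Developing replicate 3 was so for 47 and replicate 1 for 19, and replicate 1 lay within the range of the recrudescence arrays for 36. The 57 probes were chosen for their rise on these arrays, so that such counts describe them and were not tested. The mean fold change of the 57 probes therefore averages over high and low arrays and describes no single array.

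These 57 probes moved together from array to array. Over the 6 developing arrays the correlation between pairs of them had a median of 0.97, and 85.2% of the 1596 pairs exceeded 0.9. The median was 0.226 for the 336 rises between 2-fold and 8-fold and 0.512 for the 496 falls of at least 2-fold. Each correlation rests on few arrays, the probes share these arrays, and probes of related sequence may measure the same transcript. All 3 sets were chosen by their change on these same arrays, and the correlation over all tested probes was not computed. The sets also differ in spread. The SD among the developing arrays had a median of 2.04 for the 57 probes, 0.53 for the 336 rises and 0.49 for the 496 falls. The part of this spread in the correlations was not tested. Over the 5 recrudescence arrays the median for the 57 probes was 0.562, with replicate 3 the highest at a median log2 signal of -5.92, against -8.07 to -7.07 on the other recrudescence arrays.

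Many of the 57 probes were near the detection limit on the recrudescence arrays and on developing replicate 1. All 57 were well above background on developing replicates 2 to 6, and 21 were so on replicate 1. On the recrudescence arrays between 17 and 42 were well above background, and 14 were so on none of them. For those the fold is not known beyond a bound, and they passed the filter of at least 5 arrays through developing arrays alone. Of the rises of at least 8-fold, 13 belonged to probes above background on each of the 11 arrays, as did 2 of the 5 falls. With normexp correction, which compresses dim signals, all 57 probes were still called higher, but 10 rises reached 8-fold.

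**Figure D3:**
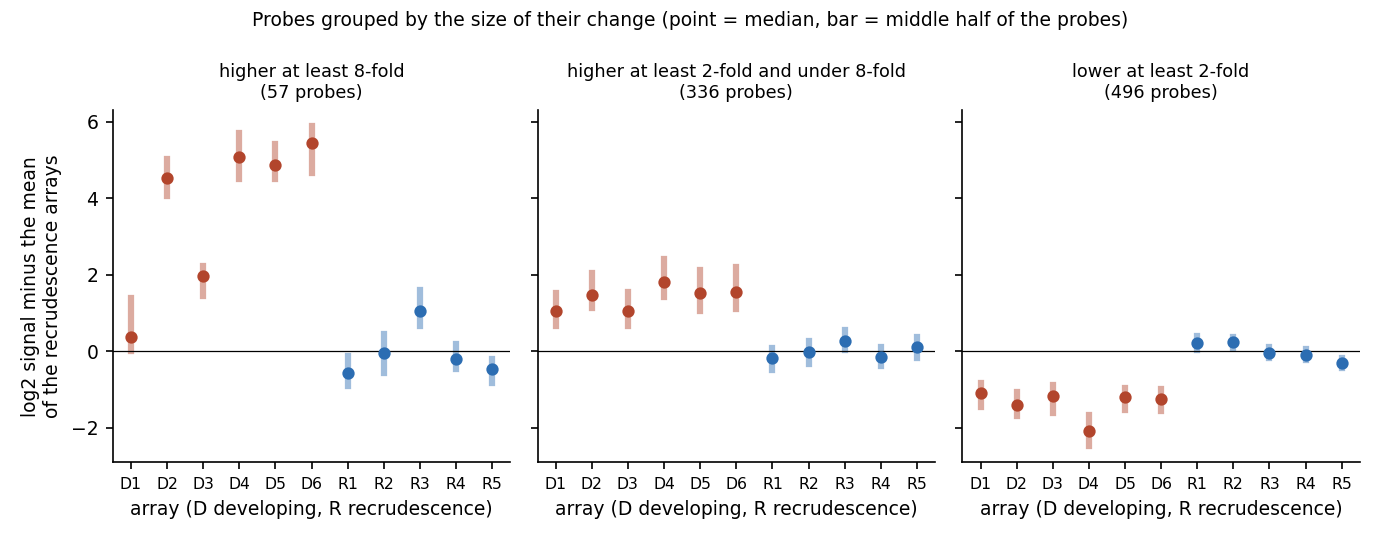
Log2 signal minus the mean of the recrudescence arrays (vertical axis) on each array (horizontal axis, D for developing in red and R for recrudescence in blue) for the 57 probes at least 8-fold higher, the 336 probes between 2-fold and 8-fold higher and the 496 probes at least 2-fold lower in developing testis. Points are medians over the probes and bars are their interquartile ranges. In the left panel D1 has a median of 0.37 and D3 of 1.96, against 4.54 to 5.45 on the other developing arrays, and in the right panel every developing array lies at or below -1.10.

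The rises between 2-fold and 8-fold were more evenly spread. For these 336 probes the median log2 signal above the recrudescence mean was 1.06 on developing replicate 1, 1.47 on replicate 2, 1.06 on replicate 3, 1.80 on replicate 4, 1.53 on replicate 5 and 1.56 on replicate 6. The recrudescence arrays had medians between -0.19 and 0.26. Replicates 1 and 3 were again the lowest of the developing arrays. Of the 336 probes, 168 (50%) showed no overlap between the stages, against 53.4% of all 2004 rises of any size. Over all tested probes the developing arrays lay above the recrudescence arrays without overlap for 13.3%.

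The arrays of the 2 stages separated on the first principal component, which held 48.1% of the variance of the 8172 probes with a value on every array. Scores were 2.7, 35.8, 12.1, 59.6, 34.9 and 36.4 for developing replicates 1 to 6, and -46.8, -41.6, -26.5, -35.4 and -31.1 for recrudescence replicates 1 to 5. The second component (14.7%) set developing replicates 1 and 3 apart, with scores of 45.9 and 35.7, from all other arrays, which lay between -19.1 and -0.4. Across probes, developing replicate 1 correlated with the recrudescence arrays at a median of 0.9544 and with the other developing arrays at a median of 0.9497. For each other developing array the median was higher with its own stage, at 0.9602 for replicate 3 and at 0.9745 to 0.9768 for the rest. These correlations carry the differences in level from probe to probe as well.

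**Figure D4:**
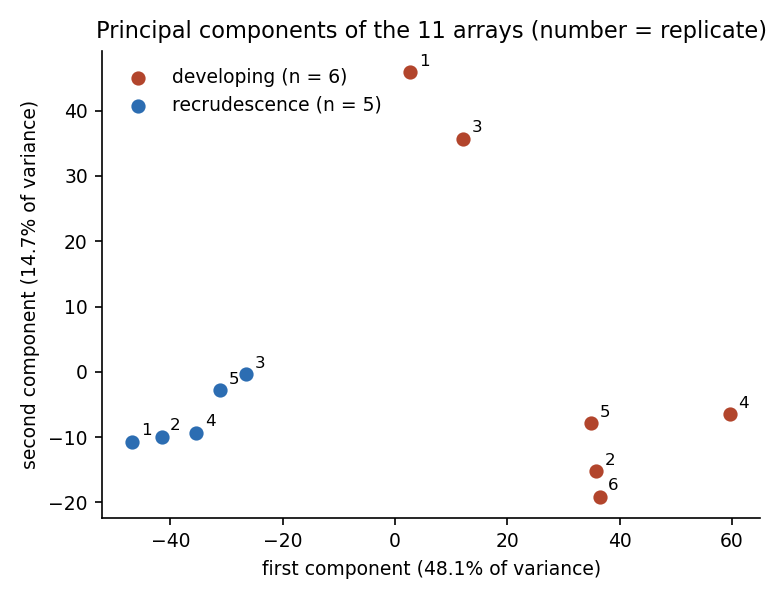
Scores of the 11 arrays on the first (horizontal axis, 48.1% of variance) and second (vertical axis, 14.7% of variance) principal component, with developing arrays in red, recrudescence arrays in blue and replicate numbers beside the points. The developing arrays score 2.7 to 59.6 and the recrudescence arrays -46.8 to -26.5 on the first component, and developing replicates 1 and 3 stand apart on the second.

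Of these, replicate 3 was the brightest developing array, with a 75th percentile of 5093 and 95.2% of probes well above background, while replicate 1 had 3991 and 87.1%. The developing arrays other than these ranged from 3212 to 4288 and from 86.6% to 90.7%. The part of these measures in the pattern of the 57 probes was not tested. Without both arrays 2191 probes were higher and 1302 lower, and 101 rises and 5 falls reached 8-fold. Developing arrays of a shared slide could differ in these probes. On slide 1 the 57 probes had medians of 1.96 on developing replicate 3 and 5.45 on developing replicate 6, and of -0.57 and -0.47 on the recrudescence arrays of that slide. On slide 3 both developing arrays were high, at 4.54 and 5.08, against 1.05 and -0.20 on the recrudescence arrays. Slide 2 holds only developing replicate 1, at 0.37, and recrudescence replicate 2, at -0.04. Slide 4 holds developing replicate 5, at 4.87, and no recrudescence array.

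In a limma fit with a term for stage, 0 probes passed the threshold for a difference among slides 1 to 3, and 505 of 8193 had an unadjusted p under 0.05. With so few arrays on a slide, and a single array of each stage on slide 2, this fit could miss differences among slides. Probes were also called with a slide left out and then looked up on it. Of 2043 probes so called, 95.3% moved the same way on slide 1. On slide 2 it was 89.3% of 2800 and on slide 3 99% of 1049. These sets differ, so that the shares do not rank the slides, and the share over all tested probes was not computed. Each slide was read in a single scan, so that slide and scan cannot be told apart.

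The largest rise among probes above background on each of the 11 arrays was that of GT_EA516_un_s_sp_39737. On the same log2 scale its signal was -0.87, 0.38, -2.73, 1.31, 0.31 and 1.37 on developing replicates 1 to 6, against -5.26, -5.43, -4.75, -4.12 and -5.27 on recrudescence replicates 1 to 5. Every developing array was above every recrudescence array, and developing replicate 3 was the nearest to them. The probe belongs to the 57 rises of at least 8-fold, but unlike most of them it was well above the recrudescence arrays on developing replicate 1. In units of processed intensity the developing arrays ran from 765 to 9000 and the recrudescence arrays from 81 to 221. The means were -0.04 ± 1.55 (SD, n = 6) in developing and -4.96 ± 0.54 (n = 5) in recrudescence testis. The log2 change of 4.92 ± 0.65 (SE, limma adjusted p 0.000522) corresponds to 30.3-fold, with a 95% interval of 11.2-fold to 82-fold. Within the slides that hold both stages it was 4.58, 4.56 and 5.28.

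The next largest rise was that of GT_EA516_un_s_xh_7297, which also belongs to the 57 probes and followed the pattern of their medians. Its log2 signal was -5.34, 0.09, -3.73, 0.48, 0.02 and 0.77 on developing replicates 1 to 6, against -6.17, -5.95, -5.98, -5.51 and -5.96 on recrudescence replicates 1 to 5. Developing replicate 1 lay just above the highest recrudescence array, and replicates 2, 4, 5 and 6 lay far above it. The means were -1.29 ± 2.58 (SD, n = 6) in developing and -5.92 ± 0.25 (n = 5) in recrudescence testis, and the log2 change was 4.63 ± 1.04 (SE, limma adjusted p 0.00596). The fold change of 24.8 has a 95% interval of 5.11 to 120. The SE assumes an equal spread in both stages, which these values do not show. Within slides the change was 4.59 on slide 1, 0.61 on slide 2 and 6.03 on slide 3, and without slide 3 the adjusted p was 0.101.

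The largest falls by the same rule were smaller than these rises, and their SD among the developing arrays was lower. GT_EA516_an_s_sp_1191 had a log2 signal of -1.86, -2.23, -4.63, -2.62, -2.62 and -3.44 on developing replicates 1 to 6, against 0.39, -0.31, 0.14, 1.03 and 0.42 on recrudescence replicates 1 to 5. The stages did not overlap, and developing replicate 3 was the lowest. The means were -2.90 ± 1.00 (SD, n = 6) in developing and 0.33 ± 0.48 (n = 5) in recrudescence testis. The log2 change of -3.23 ± 0.44 (SE, limma adjusted p 0.000602) is a 9.39-fold fall, with a 95% interval of 4.81-fold to 18.3-fold. Within slides the change was uneven, at -4.44 on slide 1, -1.55 on slide 2 and -3.01 on slide 3.

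GT_EA516_an_as_sp_268 had a log2 signal of -4.98, -4.49, -5.38, -5.70, -4.26 and -3.68 on developing replicates 1 to 6, against -1.15, -1.45, -1.49, -1.05 and -2.64 on recrudescence replicates 1 to 5. The stages did not overlap, and recrudescence replicate 5 was the nearest to the developing arrays. The means were -4.75 ± 0.75 (SD, n = 6) in developing and -1.55 ± 0.63 (n = 5) in recrudescence testis, a log2 change of -3.19 ± 0.38 (SE, limma adjusted p 0.000347). The fall was 9.15-fold, with a 95% interval of 5.12-fold to 16.4-fold. Within slides the change was -2.64 on slide 1, -3.53 on slide 2 and -3.82 on slide 3. Both rising probes have 1 spot on each array and both falling probes have 2.

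**Figure D5:**
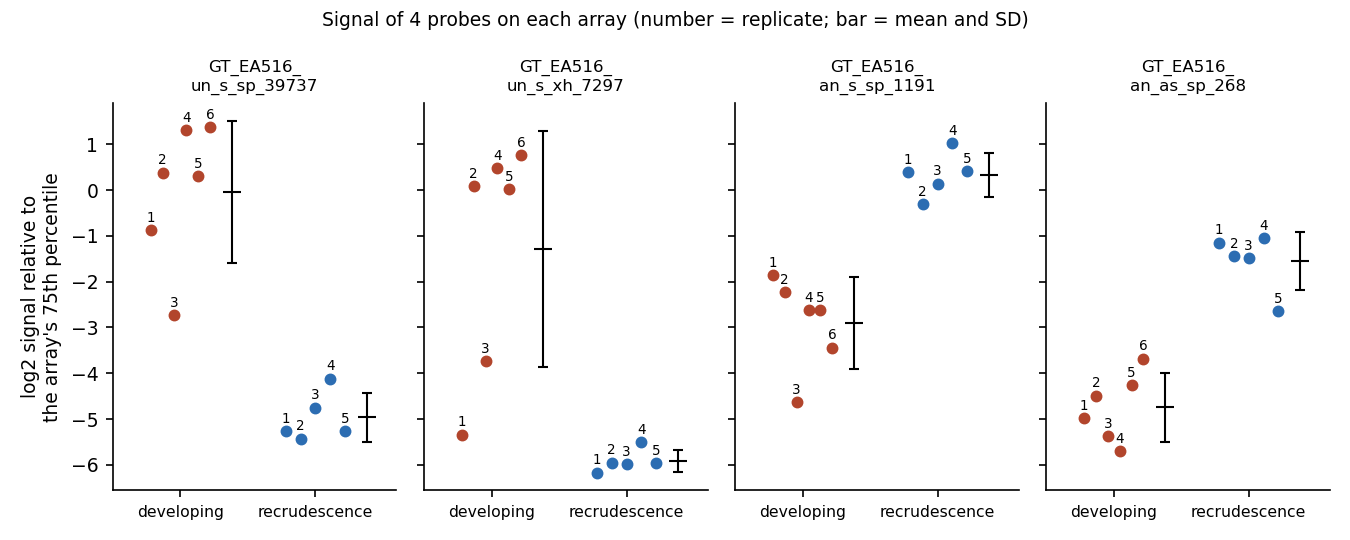
Log2 signal over the 75th percentile of the array (vertical axis) of 4 probes on each developing (red) and recrudescence (blue) array, with replicate numbers above the points and bars for the mean and SD. Developing replicates 1 and 3 lie below the other developing arrays for both rising probes (left panels), and for both falling probes (right panels) every developing array lies below every recrudescence array.

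Of the 9041 probes, few were well above background on every array of a stage and on none of the other. By a looser rule more were, since 188 were above background on 1 developing array and no recrudescence array. On 1 recrudescence array and no developing array 64 were. A single probe was well above background on all 6 developing arrays and on no recrudescence array. It was at least 6.73-fold higher in developing testis. A single probe showed the opposite and was at least 8.21-fold lower in developing testis. Each was chosen by its detection on these arrays and passed the filter through its brighter stage alone, so that no p-value is given. The bound sets the mean of the brighter stage against the mean of the other stage. There, a value below the dimmest signal that counts as above background on its array was raised to that signal. The bound holds no sampling error, and the first of these probes ran from -7.72 to -4.74 over the developing arrays on the log2 scale. Without developing replicate 1, 24 probes were above background on all remaining developing arrays and on no recrudescence array.

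What the fields within the probe names stand for is not stated by the labels or headers, and the share of rises differed among them. Of the 505 tested probes with both un and xh in their names, 184 (36.4%) rose and 35 (6.93%) fell, and their median log2 change was 0.40. Over all tested probes the shares were 24.5% and 15%, and the median was 0.15. The probes with an and sp, the most numerous, had 883 rises (23.7%) and 618 falls (16.6%) among 3720. The un and xh probes also held 26 of the 57 rises of at least 8-fold (45.6%) while they were 6.16% of the tested probes. They are dimmer than most, with a median level of -3.43 against -2.01. In the dimmest class 39.5% of them rose, against 23% of all other probes, and in the brightest class 27.2% rose, against 23.3%. Without slide 3 the share of un and xh probes that rose was 6.34%, against 5.23% of the other probes. Of 17 tested probes with names that begin with CUST, 5 rose and 2 fell, and their median log2 change was 0.61.

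The spread among the arrays of a stage was measured beside the spread between spots. For the 5742 tested probes with 2 spots, the SD between the spots of a probe within an array had a median of 0.08 on the log2 scale. The SD among arrays of a stage had a median of 0.258 in developing and 0.237 in recrudescence testis for these probes. The spread between spots leaves out the error of labelling, hybridisation and scanning, so that the spread among arrays holds technical error as well as differences between samples. Over all tested probes the SD was larger among developing than among recrudescence arrays for 4810 (58.7%). Its median was 0.279 among developing and 0.255 among recrudescence arrays. Without developing replicates 1 and 3 the median among developing arrays was 0.234, below that of recrudescence. Lone values, at least 2-fold beyond the next array of the same stage, were most frequent on developing replicate 1, with 108 probes alone at the top and 96 alone at the bottom, and on developing replicate 3, with 28 and 114. Developing replicate 4 had 42 and 93, and developing replicates 2, 5 and 6 had 12 to 31 at the top and 9 to 28 at the bottom. The recrudescence arrays had 23 to 81 at the top and 11 to 62 at the bottom.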

How the data were processed

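Testis RNA on 11 Agilent 1-colour arrays was used. Per the file headers, the arrays were read with Agilent Feature Extraction 10.7.1.1, and the deposited intensity per spot is on a linear scale, with the background of each array subtracted and no scaling from array to array. The authors also deposited log2 values per spot, whose normalisation no label or header states. They ranked the spots as the scanner intensity did (Spearman rho of 1) and had a median of 9.70 or 9.71 in every column. Their sorted values were nearly the same from column to column, with a mean SD of 0.00779 and a largest SD of 0.0542. Quantile normalisation gives such columns. The values served as an alternative, which is thus close to that with quantile normalisation. Of that table, 20 columns of other stages were not used.

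Processed intensities were divided by their 75th percentile on each array and put on a log2 scale. Spots flagged as outliers (139) were left out, and values of the remaining spots of each probe (2897 probes with 1, 6121 with 2 and 23 with 3) were averaged. No spot was saturated. A probe counted as above background where the scanner software called a share of 0.5 or more of its spots so. Probes so on at least 5 arrays were tested, and 848 (9.38%) were left out. Of the tested probes, 21 lacked a value on at least 1 array. Stages were compared with limma 3.58.1 (lmFit, then eBayes, on these arrays alone, R 4.3.3), with a threshold of 0.05 on Benjamini-Hochberg adjusted p-values. The fit was tested on simulated data with independent normal noise and the same SD of a probe in both stages. Such data lack the correlated probes and the unequal spread seen here, so that the fit was not tested for those. For arrays, their number limits the precision.

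No probe was paired with a gene, so that the planned gene lists gave no result. The probes named are the 2 largest rises and the 2 largest falls among 1810 rising and 1157 falling probes that passed the threshold, were above background on every array and were of the same direction when any array was left out. The comparison and these rules were chosen with earlier results of these data known.

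Titles and descriptions number the replicates differently. Arrays with the same title number had deviations from their stage means that correlated at -0.073 to 0.154, and those with the same description number at -0.101 to 0.154, so that the numbers do not pair the arrays. Alternatives were other scalings, background correction, filters, spread models, slide and replicate blocks, and leaving out arrays or slides.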

Additional observations from a re-analysis of the deposited data

Results flagged for a closer look

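Arrays were looked for whose distance to the next array, as a share of the range within the stage, exceeded the 95% critical value of Dixon's test, which happens by chance in about 1 of 20 groups. Of 26 groups (13 measures in both stages), 3 stood out, and several measures were chosen for their change. Developing replicate 3 had a 75th percentile of 0.12 relative to the spike-in probes on the log2 scale, against -0.84 on the next array. Developing replicate 4 had a median of -2.08 over the 496 probes that fell at least 2-fold, against -1.40 on the next array. Recrudescence replicate 5 had a log2 signal of -2.64 for GT_EA516_an_as_sp_268, against -1.49 on the next array. Developing replicate 1 did not stand out for the 57 largest rises by this measure, since replicate 3 was also low.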

How the results depend on the processing

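Of 33 alternative settings, 29 left the number of changed probes within 1.5 times of 3230. It was 896 (620 higher and 276 lower) with spike-in scaling, 1698 (937 and 761) at an adjusted p under 0.01, 2043 (1251 and 792) without slide 1 and 1049 (434 and 615) without slide 3, where 3 or 4 arrays remain in a stage. Rises were 41.4% of the calls without slide 3 and 52.1% to 69.2% under every other setting. At least 2-fold rises numbered 252 with quantile normalisation, 233 with normexp and 250 with probes above background on all arrays. They numbered 246 at 0.01 and 162 without slide 3. With spike-in scaling 2-fold falls numbered 265 and 2-fold rises 575, so that the balance between them was reversed. At least 8-fold rises numbered 10 with normexp, 13 with probes above background on all arrays, 37 at 0.01, 24 without slide 1, 13 without slide 3 and 101 without developing replicates 1 and 3. The causes were not tested, and some of these settings also hold fewer arrays or probes. Leaving out slide 4 is the same fit as leaving out developing replicate 5, and the 33 settings count it under both names.

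Leaving out single arrays gave 2681 to 3331 changed probes, 1592 to 2099 higher, 1051 to 1253 lower, 307 to 436 and 390 to 548 at least 2-fold higher and lower, 42 to 74 at least 8-fold higher, and 58.1% to 63% rises. All but 1 of the calls for the 4 named probes held under every setting, GT_EA516_un_s_xh_7297 losing its own without slide 3 (adjusted p 0.101, log2 change 3.96). A replicate block by title number, which drops developing replicate 6, gave 2671 changed probes, against 3030 without that array and without a block. A replicate block by description number gave 2496 and slide as a fixed block 2887. Both of these drop developing replicate 5, and 2875 changed without that array and without a block.

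The difference in the 75th percentile was -36.3 without developing replicate 3, -9.89 without recrudescence replicate 1 and -81.2 without developing replicates 1 and 3, between -36.3 and 340 over single arrays. Relative to the spike-in probes it was -0.00992 without developing replicates 1 and 3, and 0.0243 to 0.291 over single arrays. The difference in the share above background was -0.197 without developing replicate 3, and -0.197 to 1.54 over single arrays. The share of the 100 brightest probes differed by 2.19 to 3.15 points over single arrays. It passed the threshold only without recrudescence replicate 1 (3.10, adjusted p 0.0381 in the exact permutation test). Over the 20 and the 500 brightest probes it was 0.571 and 0.517 points (adjusted p of 0.645 for both).

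The following alternatives were chosen after seeing the data. Probes above background on all developing and no recrudescence arrays numbered 1 to 24 over single arrays. They numbered 35 without developing replicates 1 and 3, and 3 with all spots required. Probes above background on all recrudescence and no developing arrays numbered 1 to 6, 6 and 2 under these settings. The share of un and xh probes that rose was 16.4% at 0.01, 21.2% without slide 1, 6.34% without slide 3, and 28.1% to 40.6% over single arrays.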
